A study of Homo sapiens with 18 samples.

Results

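The nuclear genes of the mitochondrial respiratory chain were followed through TGFβ-induced epithelial-mesenchymal transition (EMT) in 3 lung cancer cell lines. The members were all rows of the expression table whose symbol began with the family names of complex I (NDUFA, NDUFB, NDUFC, NDUFS, NDUFV), complex II (SDHA to SDHD), complex III (UQCR), complex IV (COX4 to COX8) or ATP synthase, complex V (ATP5). Of 19849 genes, 84 matched. One of them, NDUFB2-AS1, is an antisense RNA, which left 83 rows: 37 of complex I, 4 of complex II, 8 of complex III, 17 of complex IV and 17 of complex V. A few symbols carry a family name without being constitutive subunits. NDUFA4, counted here by its name, is now placed in complex IV, and NDUFA4L2, COX4I2, COX6A2, COX6B2, COX7A1, COX7B2 and COX8C are paralogs or tissue isoforms. ATP5SL is an assembly protein and not a subunit of ATP synthase, ATP5S is a coupling factor, and COX7A2L helps to hold supercomplexes together. All 83 were tested and no filter on low values was applied.

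Complexes I and II pass electrons from NADH and succinate to coenzyme Q, complex III passes them on to cytochrome c, and complex IV hands them to oxygen. Complexes I, III and IV pump protons across the inner mitochondrial membrane, and complex V uses that gradient to make ATP. The catalytic membrane subunits of complexes I, III, IV and V that mitochondrial DNA encodes are not matched by these symbols, so everything below concerns the nuclear genes.

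A549, HCC827 and NCI-H358 are established human lung cancer lines. Parental cells grew in RPMI1640 medium with 10% FBS and 4 mM glutamine. Mesenchymal cells were kept for 3 weeks, as the labels give it, in that medium with 2 ng/ml TGFβ, which was withdrawn the day before lysis. The study's methods instead give a range of weeks, with longer ones for HCC827 and NCI-H358 than for A549, so the length of treatment and the line cannot be told apart in comparisons between lines. RNA of 3 samples per group was read on 18 Affymetrix arrays as log2 levels. Each line is 1 cell line, and the study describes the samples as separate biological samples made at the same time, so the p-values measure the spread among these samples. In bulk RNA, fewer cells carrying a transcript and less of it per cell cannot be told apart.

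The arrays were alike in overall signal, with medians from 6.31 to 6.47 and a spread between arrays of 1 group (SD of the differences over all genes) of 0.163 to 0.282, against 0.719 to 0.896 between the states of a line. In every line 5 of 5 epithelial markers were called lower and 5 of 5 mesenchymal markers higher in the mesenchymal cells. Of 4 markers of blood and endothelial cells (PTPRC, CD3E, PECAM1 and CDH5), 1 was called in any line, PECAM1, higher in HCC827 (log2 fold change 0.41, limma adjusted p = 0.024). Its readings there were low, with means of 4.657 in parental and 5.067 in mesenchymal cells, and may be background. Its part in the results for HCC827 was not tested. The subunits were quieter between replicates than most genes, with a median SD within groups of 0.066 against 0.129 over all genes. A gene was called with a limma adjusted p below 0.05, and a positive log2 fold change is higher in mesenchymal cells.

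Nuclear respiratory genes are known for promoters that bind NRF1 and GABPA, the DNA-binding subunit of NRF2, and often YY1, ERRα or CREB. RefSeq promoters of the build GRCh38.p14, 250 bases before to 50 after the start, were matched for 69 of the 83 members. The NRF1 letters GCGCATGCG lay on either strand in 10 of 69 promoters (14.5%), against 2.87% of the promoters of 15018 genes of the table. The ETS letters CCGGAAG, which GABPA binds, lay in 19 (27.5% against 14.8%), the YY1 letters AAGATGGCG in 8 (11.6% against 2.92%), and the CREB letters TGACGTCA in 5 (7.25% against 2.67%). The ERR letters TCAAGGTCA lay in 1, that of SDHD (1.45% against 0.253%). A protein-coding gene started in the opposite direction within 1000 bases upstream of 18 members (26.1%, against 11.1% of 13889 coding genes), for example HAUS1 at 158 bases from ATP5A1 and EEF1B2 at 165 bases from NDUFS1. These are matches of letters, not measured sites.

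The stretches of 150 bases before the start are shown for 5 of the 7 members that were lower in all 3 lines (below), with the letters of a searched site in capitals. ATP5C1 lies at chr10:7788027-7788176 on the plus strand and its capitals are the NRF1 letters, which read on both strands and overlap. COX8A lies at chr11:63974470-63974619 on the plus strand and SDHB at chr1:17054033-17054182 on the minus strand, both with the ETS letters in capitals, in COX8A as read from the other strand. NDUFB1 at chr14:92121707-92121856 on the minus strand and NDUFV3 at chr21:42893159-42893308 on the plus strand held none of the 5 in this stretch.
ATP5C1: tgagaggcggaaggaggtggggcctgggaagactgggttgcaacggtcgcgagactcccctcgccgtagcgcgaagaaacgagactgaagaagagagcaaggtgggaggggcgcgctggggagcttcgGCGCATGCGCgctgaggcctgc
COX8A: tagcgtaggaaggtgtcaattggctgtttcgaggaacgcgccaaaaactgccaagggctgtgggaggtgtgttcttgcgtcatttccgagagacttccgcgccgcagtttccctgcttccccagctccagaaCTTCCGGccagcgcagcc
SDHB: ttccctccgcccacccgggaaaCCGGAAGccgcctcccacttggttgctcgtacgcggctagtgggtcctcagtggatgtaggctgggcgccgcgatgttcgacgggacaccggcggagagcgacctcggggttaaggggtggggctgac
NDUFB1: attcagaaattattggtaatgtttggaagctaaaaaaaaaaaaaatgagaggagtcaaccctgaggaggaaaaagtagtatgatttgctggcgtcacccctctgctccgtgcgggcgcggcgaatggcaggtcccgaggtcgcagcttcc
NDUFV3: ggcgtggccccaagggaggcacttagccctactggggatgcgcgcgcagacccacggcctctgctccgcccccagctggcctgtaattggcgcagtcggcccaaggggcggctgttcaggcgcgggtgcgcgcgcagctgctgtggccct

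The subunit mRNAs were mostly lower in mesenchymal A549 and HCC827 cells and went both ways in NCI-H358 cells. In A549, 42 of 83 were called lower, where 26.8% of all genes were, and 0 were called higher by limma, where 16.6% of all genes were. At an unadjusted p below 0.05 there were 45 lower and 1 higher in A549, and the methods' t-test after Benjamini-Hochberg gave 45 and 1. In HCC827, 44 were called lower (all genes 25%) and 10 higher (all genes 20.8%). In NCI-H358, 18 were called lower (all genes 19.8%) and 16 higher (all genes 21.5%), both near the background. With every array centred on its own median these became 16 lower and 21 higher. Over the 83, the median log2 fold changes of A549, HCC827 and NCI-H358 were -0.231, -0.208 and 0.0312, beside -0.0208, 0.00509 and 0.015 over all genes.

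The changes were small. With a fold change above 1.5 added, A549 had 3 members lower (all genes 10%) and 0 higher (all genes 7.33%), HCC827 had 5 lower (all genes 12.5%) and 3 higher (all genes 9.66%), and NCI-H358 had 1 lower (all genes 10.1%) and 2 higher (all genes 8.72%). At the thresholds of the study, a fold above 5 and an adjusted p below 1e-05, 0 members were called in any line (all genes 1.9%, 2.95% and 2.17% for A549, HCC827 and NCI-H358).

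The level of the probe set matters for reading these counts. The table holds 1 probe set per gene, and 58 of the 83 had a mean log2 level of at least 9, while 25 were dimmer, 10 of them among the 17 of complex IV. Some constitutive subunits were read by dim probe sets, for example NDUFS4 at a mean of 3.88, NDUFB6 at 4.50, ATP5E at 5.01, COX6A1 at 5.61 and COX4I1 at 7.13. Bright genes were called lower more often than dim genes in these data. Of the 3603 genes of the table with a level of at least 9, the shares called lower were 43.6%, 37.9% and 27.3% for A549, HCC827 and NCI-H358. Against these, 31 of 58 bright members (53.4%) were called lower in A549. For HCC827 the count was 41 (70.7%) and for NCI-H358 it was 14 (24.1%). The median changes of bright members were -0.216, -0.285 and 0.0253 in A549, HCC827 and NCI-H358. Those of all bright genes were -0.114, -0.0368 and 0.0352. Bright members called higher numbered 5 for HCC827 (30.5% of bright genes) and 11 for NCI-H358 (34.2%), while A549, where 22% of bright genes were called higher, had none.

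**Figure D1:**
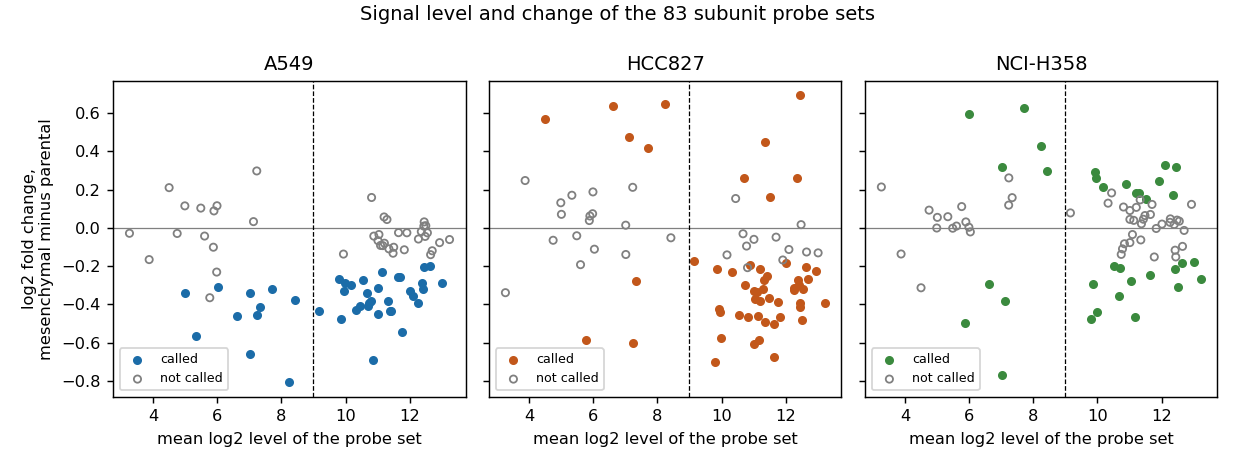
Mean log2 level of each of the 83 probe sets over the 18 arrays (x axis) against its log2 fold change, mesenchymal minus parental (y axis), in each line. Filled points were called at a limma adjusted p below 0.05 and the dashed line marks a level of 9; in HCC827 the bright points lie mostly below 0 (41 of 58 called lower), while 5 of the 25 dim ones were called higher and 3 lower.

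Over all members the complex medians differed within a line, and no test compared complexes. Of all genes, 26.8%, 25% and 19.8% were called lower and 16.6%, 20.8% and 21.5% higher in A549, HCC827 and NCI-H358. Of bright genes in A549 43.6% were called lower, beside 15 of 30 bright members of complex I (50%). The bright members of complex IV there had a median of -0.0446, against -0.167 to -0.317 for the other complexes. In A549, complex V (12 of 17 lower, median log2 fold change -0.33), complex III (6 of 8, -0.331), complex II (3 of 4, -0.307) and complex I (18 of 37, -0.166) were lower, while complex IV had 3 of 17 lower with a median of -0.0427, which turned to 0.0254 with centred arrays. In HCC827, complex I (21 of 37 lower, 6 higher, median -0.213), complex II (3 of 4 lower, -0.349), complex V (10 of 17 lower, 1 higher, -0.23) and complex IV (7 of 17 lower, 1 higher, -0.192) were lower. Complex III was mixed there, with 3 of 8 lower and 2 higher, and its median of -0.0188 turned to 0.0461 with centred arrays and 0.0629 with quantile-normalized ones. Among bright members the 5 complexes of HCC827 lay closer together, with medians of -0.305, -0.349, -0.225, -0.391 and -0.249 for complexes I to V, so that complex IV was lowest and 3 of 5 members of complex III were called lower. In NCI-H358 the medians were 0.0446 for complex I (8 higher, 7 lower), -0.0271 for complex II (1 higher, 2 lower), 0.153 for complex III (3 higher, 1 lower), 0.00337 for complex IV (2 higher, 4 lower) and 0.02 for complex V (2 higher, 4 lower). That of complex II turned to 0.0121 with centred arrays. Among bright members of NCI-H358 the medians of complexes I to V lay between -0.0271 and 0.0449. For complex III there, the median over its 5 bright members was 0.0352, with 1 called lower and none higher, so the 3 calls higher were of dim probe sets.

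**Figure D2:**
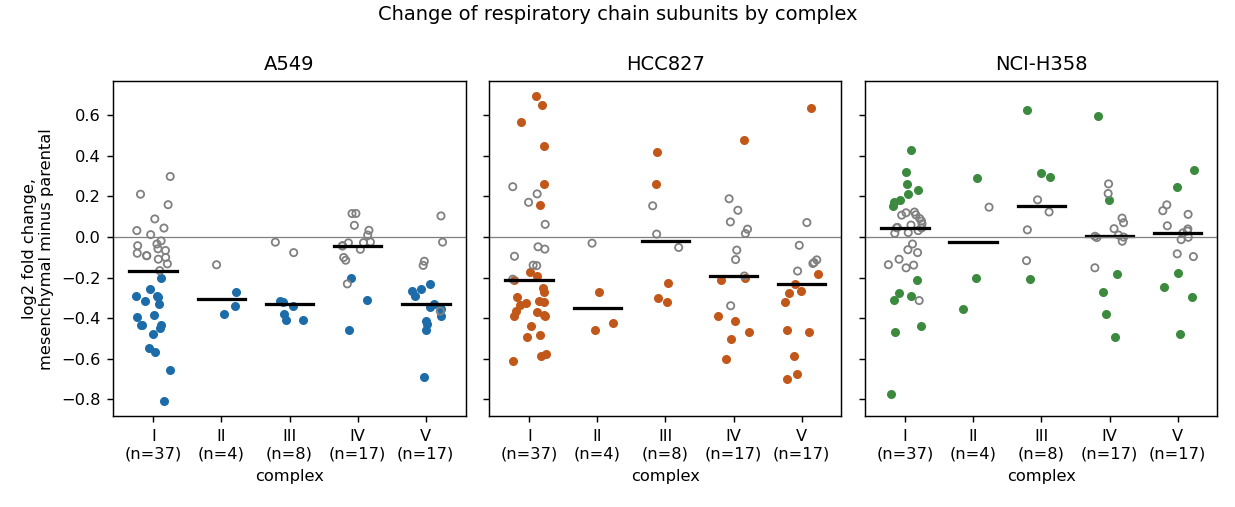
Log2 fold change, mesenchymal minus parental (y axis), of each subunit by complex (x axis) in A549, HCC827 and NCI-H358. Filled points were called at a limma adjusted p below 0.05, open points were not, and black bars are medians; in A549 no filled point lies above 0, and the bar of complex IV, -0.0427 (0.0254 with centred arrays), lies nearer 0 than those of the other complexes.

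With each subunit set against its own mean in the parental arrays, the median deviation of complex IV in the 3 mesenchymal A549 arrays lay between -0.0764 and -0.0514. Complex V lay between -0.339 and -0.278 there, complex III between -0.394 and -0.269, complex II between -0.388 and -0.248 and complex I between -0.222 and -0.151. The parental A549 arrays lay between -0.0126 and 0.0273 for all 5 complexes, near 0 because their own mean was the reference. Parental and mesenchymal arrays, not centred, did not overlap for any of them. The medians over all genes were also lower in mesenchymal A549 arrays, 6.31 to 6.338 against 6.368 to 6.417. The small shift of complex IV cannot be told apart from that. Complex IV lay nearest 0 in each mesenchymal A549 array, while the order of the other complexes varied between arrays. In HCC827 the mesenchymal arrays lay between -0.206 and -0.117 for complex IV and between -0.0753 and 0.0298 for complex III, the complex that overlapped its parental arrays. In NCI-H358, complex III lay between 0.128 and 0.176, above its parental arrays (-0.0745 to 0.0498) with its dim members included, and the arrays of the other 4 complexes lay between -0.0429 and 0.061. These are descriptions of the members and carry no test.

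**Figure D3:**
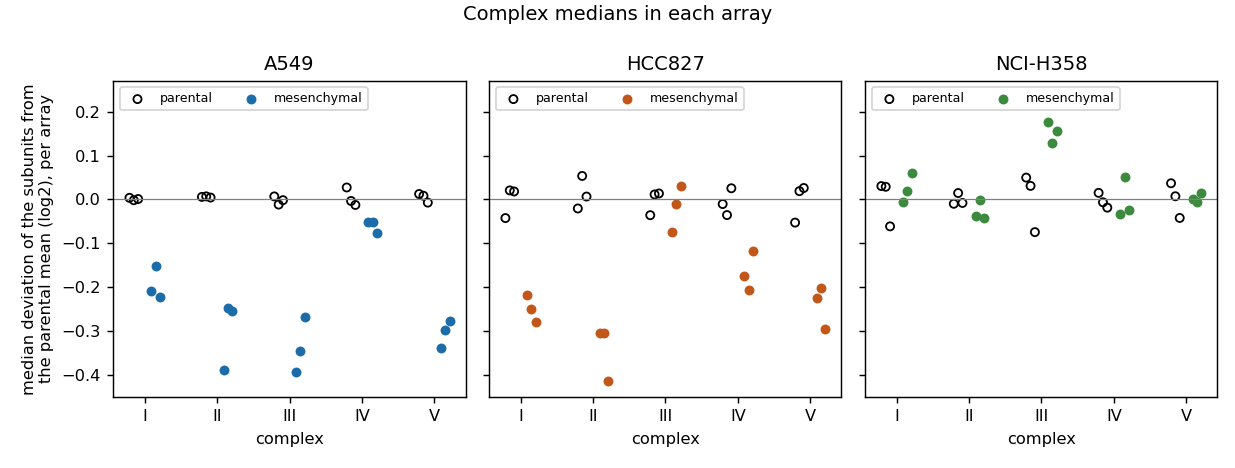
Median over the subunits of a complex of the deviation from each subunit's parental mean (log2, y axis), 1 point per array, by complex (x axis) in the 3 lines. Open points are parental and filled points mesenchymal arrays, 3 of each; A549 complex IV lies between -0.0764 and -0.0514 and the other A549 complexes between -0.394 and -0.151.

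In complex IV, cytochrome c oxidase, the change in HCC827 minus that in A549 was called negative for 5 of 17 members (29.4%, all genes 19.5%) and positive for 1. The 5 were bright members, of which COX5B, COX6C and COX7C were named after their values were seen, and the group was not tested. COX6C, a small structural subunit, read 12.49, 12.47 and 12.45 in parental and 12.47, 12.44 and 12.52 in mesenchymal A549 cells. In HCC827 it read 12.32 in all 3 parental arrays and 12.01, 11.97 and 11.74 in the mesenchymal ones. The groups overlapped in A549 and stood apart in HCC827. COX5B, which binds zinc, read 11.58, 11.52 and 11.54 in parental and 11.47, 11.58 and 11.51 in mesenchymal A549 arrays, against 12.25, 12.13 and 12.16 and then 11.71, 11.73 and 11.59 in HCC827. Its change was -0.02 ± 0.06 (SE) in A549 and -0.50 ± 0.06 in HCC827. The change in HCC827 minus that in A549 was -0.48 ± 0.08 for COX5B (limma adjusted p = 0.000178), -0.42 ± 0.09 for COX6C (0.00115), -0.35 ± 0.08 for COX6B1 (0.00204), -0.33 ± 0.07 for COX7C (0.000924) and -0.27 ± 0.08 for COX7A2L (0.00818). All 5 kept an adjusted p of at most 0.025 whichever of the 18 arrays was left out. COX7A2L is a protein that helps to hold respiratory supercomplexes together. Of the 7 complex IV members with a level of at least 9, 1 was called lower in A549 (bright genes 43.6%) and 6 in HCC827 (37.9%). The one not called in HCC827 was COX7A2, the widespread form of subunit VIIa, with changes of -0.04, 0.02 and 0.04 (all ± 0.05) in the 3 lines and overlapping groups in each. NDUFA4, counted with complex I, rose in HCC827 (0.26 ± 0.05, 0.000535) and in NCI-H358 (0.17 ± 0.05, 0.0146), the latter lost without parental replicate 2 or mesenchymal replicate 2 (adjusted p up to 0.065).

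COX4I1, the constitutive form of the largest nuclear subunit, went the other way on a dim probe set. It read 6.71, 6.92 and 6.64 in parental and 7.28, 7.15 and 7.27 in mesenchymal HCC827 cells, and 7.46, 7.57 and 7.29 and then 7.09, 7.05 and 7.04 in NCI-H358. Mesenchymal arrays were all above the parental ones in HCC827 and all below them in NCI-H358, with changes of 0.48 ± 0.08 (adjusted p = 0.000119) and -0.38 ± 0.08 (0.00115). In A549 the change was 0.03 ± 0.08 (0.791). Its paralog COX4I2, known from lung and for expression under low oxygen, was called lower in A549 (-0.31 ± 0.10, adjusted p = 0.0182), a call lost without parental replicate 1, parental replicate 3 or mesenchymal replicate 3 (adjusted p up to 0.0855). COX4I2 read between 5.85 and 6.38 over all arrays of the 3 lines, dim readings that may be background. COX5A, a subunit of the matrix side, was also read by a dim probe set. It fell in A549 (-0.46 ± 0.10, 0.00158) and HCC827 (-0.60 ± 0.10, 0.000105), and its change in NCI-H358 was 0.26 ± 0.10 (0.053).

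In A549, 12 of 17 members of complex V were called lower (all genes 26.8%), and the changes of the 17 lay between -0.69 and 0.10. Of the 12 bright members of complex V, 9 were called lower (75%, bright genes 43.6%). The 17 include ATP5S, a coupling factor, and ATP5SL, an assembly protein, both counted by name. The c ring turns as protons pass, and ATP5G1, ATP5G2 and ATP5G3 encode the same mature c subunit. ATP5G1 read 11.82, 11.88 and 11.78 in parental and 11.12, 11.12 and 11.16 in mesenchymal A549 cells, and 10.62, 11.03 and 10.96 against 10.35, 10.44 and 10.41 in HCC827. In NCI-H358 it read 10.46, 10.44 and 10.43 against 10.36, 10.37 and 10.35. No groups overlapped in any line, and A549 had a change of -0.69 ± 0.08 (adjusted p = 2.41e-06), the lowest of its complex V, HCC827 one of -0.47 ± 0.08 (0.000125) and NCI-H358 one of -0.08 ± 0.08 (0.483). ATP5G3, on a dim probe set, fell in A549 (-0.41 ± 0.07, 0.000148) and HCC827 (-0.28 ± 0.07, 0.00406). ATP5G2 fell in A549 (-0.35 ± 0.05, 4.18e-05) and rose in NCI-H358 (0.33 ± 0.05, 8.49e-05), where its parental arrays read 11.71, 11.7 and 11.67 and the mesenchymal ones 12, 12.01 and 12.06. The 2 changes differed by 0.68 ± 0.08 (1.56e-06).

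The F1 head makes the ATP, with ATP5B and ATP5A1 as its β and α subunits and ATP5C1, ATP5D and ATP5E as the γ, δ and ε subunits of the central stalk. In A549 all 5 were called lower, with changes from -0.39 for ATP5B to -0.26 for ATP5C1. The call of ATP5E was lost without parental replicate 1, parental replicate 3 or mesenchymal replicate 3 (adjusted p up to 0.0631). In HCC827 ATP5B, ATP5C1 and ATP5D were called lower, and in NCI-H358 ATP5A1, ATP5C1 and ATP5D were. ATP5C1 read 12.38, 12.35 and 12.37 in parental and 12.08, 12.13 and 12.12 in mesenchymal A549 arrays, 11.34, 11.4 and 11.47 against 10.8, 10.74 and 10.66 in HCC827, and 11.73, 11.7 and 11.66 against 11.49, 11.42 and 11.45 in NCI-H358. The mesenchymal arrays lay below the parental ones in each line, with changes of -0.26 ± 0.06, -0.67 ± 0.06 and -0.245 ± 0.06 (adjusted p = 0.00139, 2.77e-08 and 0.00201). ATP5D read 9.93, 9.93 and 9.88 against 9.58, 9.62 and 9.75 in A549, 10.2, 10.39 and 10.4 against 9.66, 9.74 and 9.49 in HCC827, and 9.86, 9.87 and 9.88 against 9.37, 9.38 and 9.42 in NCI-H358. It too was lower in every mesenchymal array of each line, with changes of -0.27 ± 0.07, -0.70 ± 0.07 and -0.48 ± 0.07 (0.00606, 3.42e-07 and 3.44e-05).

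Complex II also belongs to the citric acid cycle, and the mRNA of its iron-sulfur subunit SDHB was lower in all 3 lines. SDHB read 10.73, 10.77 and 10.71 against 10.33, 10.53 and 10.53 in A549, 10.51, 10.56 and 10.54 against 10.12, 10.18 and 9.94 in HCC827, and 10.79, 10.79 and 10.73 against 10.55, 10.58 and 10.58 in NCI-H358. No groups overlapped, and the changes were -0.27 ± 0.07 (adjusted p = 0.00352), -0.46 ± 0.07 (2.52e-05) and -0.20 ± 0.07 (0.0256). The last call was lost without any 1 of 5 of the 6 NCI-H358 arrays (adjusted p up to 0.072), all but parental replicate 3. SDHA, the flavoprotein that oxidises succinate, fell in A549 (-0.34 ± 0.07, 0.000502) and NCI-H358 (-0.36 ± 0.07, 0.000335), and its change in HCC827 was -0.03 ± 0.07 (0.766). The membrane anchor SDHC fell in HCC827 (-0.43 ± 0.09, 0.000468) and rose in NCI-H358 (0.29 ± 0.09, 0.0105). The other anchor, SDHD, fell in A549 (-0.38 ± 0.06, 0.000106) and HCC827 (-0.27 ± 0.06, 0.00187).

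Complex III showed its core proteins lower in A549. UQCRC1 and UQCRC2, the core proteins of the matrix side, and UQCRFS1, the Rieske iron-sulfur protein, fell there by 0.41, 0.41 and 0.32. UQCRFS1 was also called lower in HCC827 (-0.30, limma adjusted p = 0.000307), and its change in NCI-H358 was -0.12 (0.122). UQCRC2 had changes of 0.15 (0.219) in HCC827 and 0.18 (0.149) in NCI-H358. UQCRC1 read 10.56, 10.5 and 10.5 against 10.04, 10.15 and 10.14 in A549, 10.43, 10.43 and 10.45 against 10.73, 10.71 and 10.67 in HCC827, and 11.29, 11.32 and 11.27 against 11.15, 11.01 and 11.08 in NCI-H358. It was thus lower in mesenchymal A549 and NCI-H358 and higher in mesenchymal HCC827, with no overlap. The change in HCC827 was 0.26 ± 0.06 (adjusted p = 0.000869), and it differed from A549 by 0.67 ± 0.08 (2.66e-06). UQCR10, a small subunit on a dimmer probe set, read 7.58, 7.54 and 7.43 against 7.13, 7.15 and 7.31 in A549, 7.36, 7.6 and 7.49 against 7.79, 7.95 and 7.96 in HCC827, and 7.85, 7.81 and 7.61 against 8.31, 8.4 and 8.43 in NCI-H358. It fell in A549 (-0.32 ± 0.08, 0.00498) and rose in HCC827 (0.42 ± 0.08, 0.000523) and NCI-H358 (0.63 ± 0.08, 9.77e-06), the highest change of complex III there. UQCRQ, another small subunit, read 12.74, 12.67 and 12.72 against 12.38, 12.41 and 12.38 in HCC827, the lowest call of complex III in that line (-0.32 ± 0.05, 9.98e-05), and its groups overlapped in the other two lines.

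Complex I showed its catalytic core lower in A549, and more of its accessory subunits lower in HCC827. The core subunits, among them NDUFV1 and NDUFV2 of the NADH arm, carry the redox groups that pass electrons to coenzyme Q. In A549, 6 of 7 nuclear core subunits were called lower (median -0.433), where 26.8% of all genes and 43.6% of bright genes were. All of the 7 but NDUFS1 were bright. In HCC827 3 were lower and 1 higher (median -0.141). One of the HCC827 calls, NDUFS7 (adjusted p = 0.0494), was lost without any 1 of 5 of the 6 arrays, all but parental replicate 1 (adjusted p up to 0.134). In NCI-H358 2 were lower and 1, NDUFS3, higher (median 0.0216), the last lost without parental replicate 3 or mesenchymal replicate 3. Of the 25 accessory subunits of the NDUFA, NDUFB and NDUFC families, 10 were called lower in A549 (median -0.101). In HCC827 17 were lower (all genes 25%, bright genes 37.9%) and 4 higher (all genes 20.8%, bright genes 30.5%), with a median of -0.313. In NCI-H358 4 were lower (all genes 19.8%) and 6 higher (all genes 21.5%), with a median of 0.0472. No test compared the core with the accessory subunits.

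NDUFV2, an iron-sulfur subunit of the NADH arm, fell in HCC827 (-0.58 ± 0.06, adjusted p = 5.24e-07) and NCI-H358 (-0.47 ± 0.06, 8.82e-06), and its change in A549 was -0.09 ± 0.06 (0.261). NDUFS1, the largest iron-sulfur subunit, on a dim probe set, fell in A549 (-0.66 ± 0.15, 0.00152) and NCI-H358 (-0.77 ± 0.15, 0.000375), and its change in HCC827 was -0.14 ± 0.15 (0.498). NDUFS8, which carries iron-sulfur clusters next to the quinone site, read 11.65, 11.56 and 11.63 against 11.15, 11.19 and 11.19 in A549 and 11.37, 11.47 and 11.49 against 11.9, 11.95 and 11.82 in HCC827. It fell in A549 (-0.44 ± 0.06, 2.41e-05) and rose in HCC827 (0.45 ± 0.06, 1.35e-05), with no overlap, and in NCI-H358 the change was 0.02 ± 0.06 (0.841).

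The largest reversal between lines in the whole chain was NDUFA6, an accessory subunit of the matrix arm. On a probe set with a mean level of 8.24, it read 8.87, 8.84 and 8.73 against 7.94, 7.96 and 8.11 in A549, 7.38, 7.68 and 7.54 against 8.14, 8.22 and 8.19 in HCC827, and 8.32, 8.31 and 8.03 against 8.68, 8.65 and 8.63 in NCI-H358. Mesenchymal arrays lay below the parental ones in A549 and above them in the other two lines. The change was -0.81 ± 0.09 (adjusted p = 7.45e-07), 0.65 ± 0.09 (7.17e-06) and 0.43 ± 0.09 (0.000604), the lowest call of complex I in A549 and the highest in NCI-H358. Parental HCC827 minus parental A549 was -1.28 ± 0.09 (8.42e-10), and in the mesenchymal cells the HCC827 arrays were the higher ones. NDUFA12, an accessory subunit near the NADH arm, rose in HCC827 (0.69 ± 0.06, 2.7e-08), the highest change of the chain there, and in NCI-H358 (0.32 ± 0.06, 0.000255), and its change in A549 was 0.03 ± 0.06 (0.712).

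Called lower in all 3 lines were 7 members, NDUFA7, NDUFB1, NDUFV3, SDHB, COX8A, ATP5C1 and ATP5D (8.43%), where 6.14% of all genes were, and 0 by limma were called higher in all 3, where 4.31% were. At an unadjusted p below 0.05 these counts were 10 and 0, and 0 were higher in all 3 also with an intensity trend, robust eBayes, centred or quantile-normalized arrays. The share of 7 is near the background. With centred arrays 2 of the 7 were called in all lines, ATP5C1 and NDUFA7, and with quantile-normalized arrays all 7. NDUFA7, an accessory subunit, had changes of -0.29 ± 0.07, -0.58 ± 0.07 and -0.44 ± 0.07 in A549, HCC827 and NCI-H358. NDUFB1, of the membrane arm, had -0.20, -0.39 and -0.21, and COX8A, the common form of the smallest subunit of complex IV, had -0.20, -0.20 and -0.18. NDUFV3, an accessory protein of the NADH arm, had -0.48, -0.21 and -0.29, and its HCC827 call was lost without parental replicate 3 or mesenchymal replicate 2 (adjusted p up to 0.0641).

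**Figure D4:**
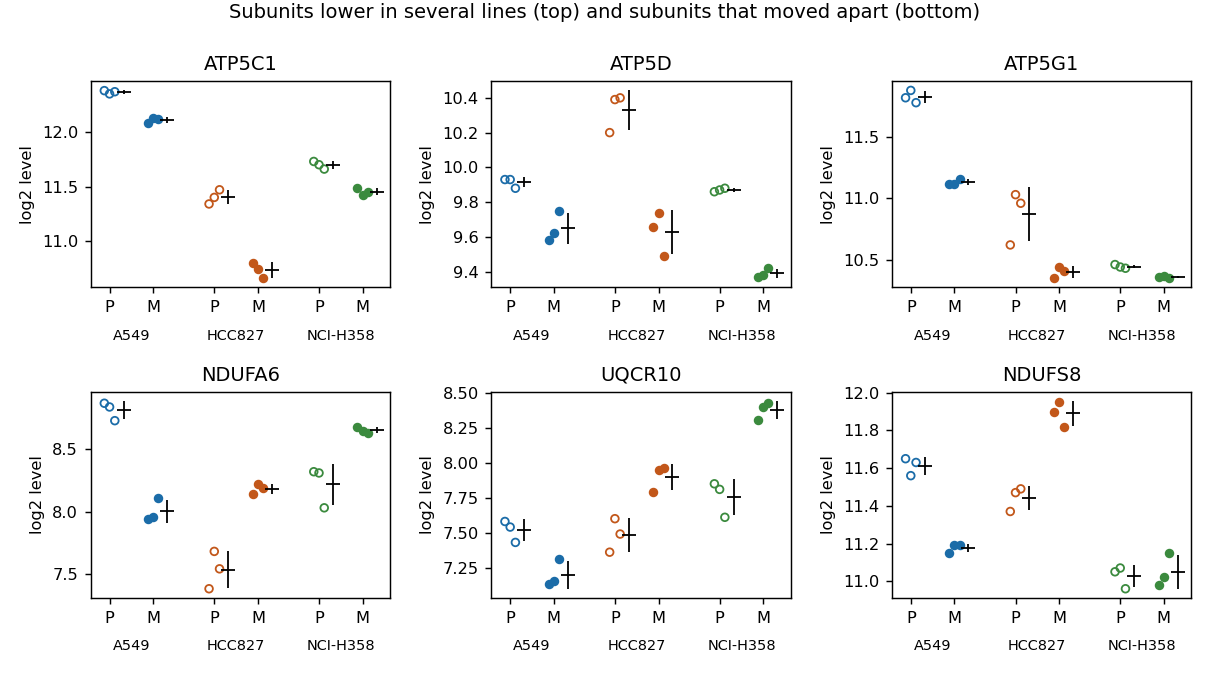
Log2 level (y axis) of 6 subunits in each array of the 3 lines, with open points for parental (P) and filled points for mesenchymal (M) arrays, and the mean with SD of 3 arrays beside them. ATP5C1 and ATP5D were called lower in each line and ATP5G1 in A549 and HCC827, while NDUFA6 and UQCR10 were lower in A549 and higher in HCC827 and NCI-H358, and NDUFS8 was lower in A549 and higher in HCC827.

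The difference of the change between lines was tested for every gene, in comparisons that share groups with each other. The change in HCC827 minus that in A549 was called positive for 18 members (all genes 22.7%) and negative for 17 (all genes 19.5%). The change in NCI-H358 minus that in A549 was positive for 36 (all genes 25.7%) and negative for 6 (all genes 17.1%), and minus that in HCC827 it was positive for 37 (all genes 21.1%) and negative for 9 (all genes 16.8%). By complex, the 36 members against A549 were 18 of 37 of complex I, 2 of 4 of complex II, 5 of 8 of complex III, 2 of 17 of complex IV and 9 of 17 of complex V. For complex IV against HCC827 the count was 7 of 17. In either direction, the 3 comparisons called 35 members (42.2%, all genes 42.2%), 42 (50.6%, all genes 42.8%) and 46 (55.4%, all genes 37.9%). Called in opposite directions in a pair of lines, with the difference itself called, were 15 members (18.1%, all genes 15.7%), near the background.

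Parental lines differed in single subunits more than EMT moved them. With an adjusted p below 0.05 and a fold above 1.5, HCC827 was higher than A549 in 11 members (all genes 16.8%) and lower in 14 (all genes 16.3%). NCI-H358 was higher than A549 in 10 (all genes 17.6%) and lower in 16 (all genes 17.4%), and higher than HCC827 in 12 (all genes 14.1%) and lower in 10 (all genes 14.8%). These shares were near those of all genes.

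One member stood far outside that range. COX7B2, the testis form of the complex IV subunit VIIb, read 10.89, 10.88 and 10.67 in parental NCI-H358 cells. Parental A549 read 3.5, 3.62 and 3.56, and parental HCC827 3.51, 3.43 and 3.7. NCI-H358 was 7.25 ± 0.09 higher than A549 on the log2 scale, a 152.6-fold difference (adjusted p = 2.73e-19), and 7.27 ± 0.09 higher than HCC827, 154.1-fold (3.26e-19). The level lay at percentile 94.6 of all genes in parental NCI-H358 and at 11.3 and 11.2 in the others, where such a low reading may be background, so the folds are ratios of readings that depend on the floor of the probe set, not measured ratios of RNA. In mesenchymal NCI-H358 cells COX7B2 read 10.25, 10.28 and 10.43, all below the parental arrays (-0.49 ± 0.09, 0.000141), and in mesenchymal A549 and HCC827 it stayed between 3.37 and 3.68.

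The probe set of the common form, COX7B, was lowest in the same line. It read 6.34, 6.21 and 6.36 in parental A549, 6.97, 6.72 and 6.8 in parental HCC827 and 4.66, 4.57 and 4.56 in parental NCI-H358, and NCI-H358 minus A549 was -1.71 ± 0.10 (adjusted p = 8.81e-11) and NCI-H358 minus HCC827 was -2.23 ± 0.10 (4.72e-12). After EMT, the COX7B reading rose in NCI-H358 to 5.06, 5.09 and 5.43 (0.59 ± 0.10, 9.12e-05), while that of COX7B2 fell. These COX7B readings are dim and may be background, so an exchange of the forms is not shown. The change of COX7B in A549 was -0.23 ± 0.10 (0.0707). COX6B2, the testis form of subunit VIb, was also highest in parental NCI-H358, with 6.65, 6.43 and 6.83 against 5.82, 5.6 and 5.52 in A549 and 5.51, 5.39 and 5.73 in HCC827. It was 0.99 ± 0.11 above A549 (5.1e-07) and 1.09 ± 0.11 above HCC827 (1.9e-07), and was not called with EMT in any line. The COX6B2 readings are dim too, and those of A549 and HCC827 may be background. For COX6B1, the common form, parental NCI-H358 minus A549 was -0.73 ± 0.06 (6.01e-09). It was not lowest in NCI-H358, where parental arrays read 11.79, 11.78 and 11.7, against 11.54, 11.51 and 11.58 in HCC827. The other tissue isoforms, COX6A2, COX7A1, COX8C and the paralog NDUFA4L2, were not called with EMT in any line and had mean levels of 4.99, 4.75, 3.27 and 5.90.

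**Figure D5:**
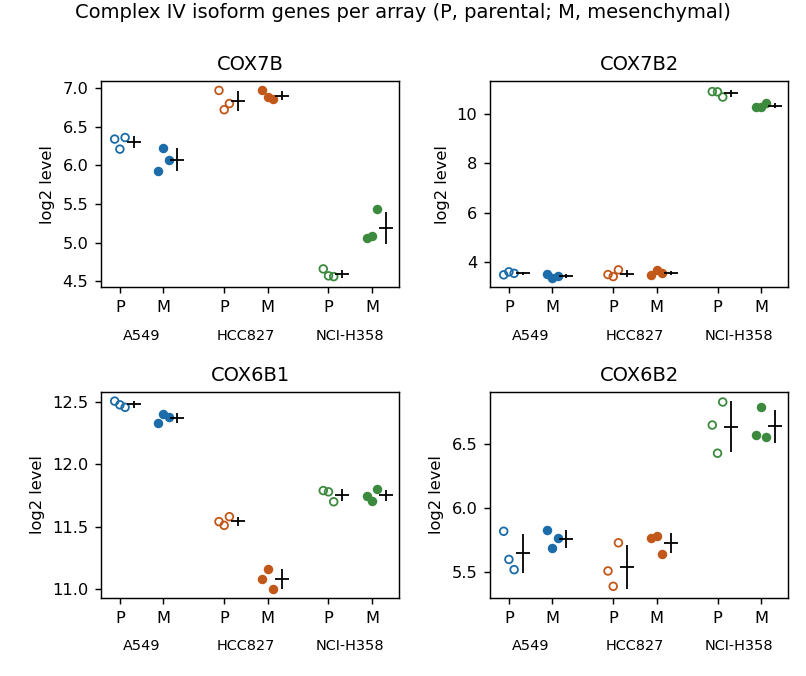
Log2 level (y axis, a scale of its own in each panel) of COX7B, COX7B2, COX6B1 and COX6B2 in each array of the 3 lines, open for parental (P) and filled for mesenchymal (M), with the mean and SD of 3 arrays. COX7B2 lies between 10.25 and 10.89 in NCI-H358 and between 3.37 and 3.7 in A549 and HCC827, and COX7B is lowest in NCI-H358; levels of different probe sets are not comparable.

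Other parental differences touched core subunits. UQCRC2 read 11.26, 11.26 and 11.38 in parental A549, 10.76, 10.61 and 10.72 in parental HCC827 and 9.11, 9.36 and 9.62 in parental NCI-H358, with no overlap among the lines. NCI-H358 minus A549 was -1.94 ± 0.10 (adjusted p = 1.05e-11), a 3.84-fold difference on a bright probe set. For COX5A, on a dimmer one, it was also -1.94 ± 0.10 (2.95e-11), and HCC827 minus A549 was -1.40 ± 0.10 (2.74e-09). The same differences for NCI-H358 and HCC827 were -1.30 ± 0.06 and -1.12 ± 0.06 for UQCRFS1, and -1.38 ± 0.08 and -0.95 ± 0.08 for ATP5G1. ATP5I, the e subunit at the base of ATP synthase, had the reverse order, 1.36 ± 0.07 higher in NCI-H358 than in A549 (2.03e-11) and 0.72 ± 0.07 higher in HCC827 (1.07e-07).

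Genes that build and feed the chain were counted from lists of textbook members, which were not tested as lists. Of all genes, 26.8%, 25% and 19.8% were called lower and 16.6%, 20.8% and 21.5% higher in A549, HCC827 and NCI-H358. Of 46 assembly factors, 30 were called lower (65.2%) and 2 higher (4.35%) in A549. HCC827 had 23 lower (50%) and 8 higher (17.4%), NCI-H358 had 11 lower (23.9%, near the share of all genes) and 16 higher (34.8%), and the 3 lines had medians of -0.33, -0.232 and 0.0312. COX15, needed for the heme of complex IV, fell in A549 (-1.13, adjusted p = 6.43e-09) and HCC827 (-1.05, 1.12e-08), and had 0.12 (0.271) in NCI-H358. UQCC1, for complex III, fell in A549 (-1.05, 2.43e-06) and rose in HCC827 (0.51, 0.00267). The probe sets of COX15 and UQCC1 were dim, with mean levels of 7.516 and 6.339. Of 10 genes of coenzyme Q synthesis, 8 were lower in A549 (80%, median -0.573), 6 were lower (60%) and 1 higher (10%) in HCC827, and NCI-H358 had 2 lower (20%) and 3 higher (30%). COQ5, a methyltransferase, fell in each line (-0.62, -0.54 and -0.27). COQ2, the prenyltransferase, fell in A549 (-0.83, 1.28e-05) and rose in HCC827 (0.78, 2.14e-05) and NCI-H358 (0.41, 0.00755). Its probe set was dim, with a mean level of 6.335.

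Of 13 regulators of mitochondrial biogenesis, 7 were lower (53.8%) and 1 higher (7.69%) in A549, while HCC827 and NCI-H358 each had 2 lower (15.4%) and 6 higher (46.2%), beside the shares of all genes above. The factor NRF1, whose letters are shown above, fell in A549 (-0.65, adjusted p = 3.79e-06) and rose in HCC827 (0.38, 0.000815) and NCI-H358 (0.23, 0.0277). ESRRA, which encodes ERRα, fell in each line (-0.18, -0.77 and -0.45, the first with an adjusted p of 0.0471). TFAM, which packages and transcribes mitochondrial DNA, fell in A549 (-0.94, 0.000442). The coactivator PPARGC1B rose in HCC827 (0.46, 0.00547) and NCI-H358 (0.76, 8.25e-05). The probe sets of NRF1, ESRRA, TFAM and PPARGC1B were dim, with mean levels of 7.001, 8.063, 4.988 and 6.65. The last list held 6 genes with other symbols, CYC1, NDUFAB1, CYCS, USMG5, C14orf2 and ATPIF1. Of these, 2 were lower (33.3%) and 1 higher (16.7%) in A549, 4 were lower (66.7%) and 2 higher (33.3%) in HCC827, and NCI-H358 had 2 higher (33.3%). ATPIF1, an inhibitor of ATP synthase and not a subunit or carrier, was among the 4 lower in HCC827 (-0.87, 1.91e-08). Cytochrome c (CYCS) rose in each line (0.42, 1.14 and 0.57), on a dim probe set with a mean level of 6.109. Cytochrome c1 (CYC1) of complex III fell in A549 (-0.67, 5.68e-07) and HCC827 (-0.63, 9.12e-07).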

How the data were processed

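RNA of 18 cell samples, 3 parental and 3 mesenchymal of each line, was read on Affymetrix U133 Plus arrays. The authors summarised the arrays by RMA and deposited log2 levels for 19849 genes, 1 probe set per gene, by a rule not given in the sources used here. Columns bear sample titles, and 0 columns of sample values were left unmapped. A RefSeq gene table held 19326 of its gene IDs, and 69 of 83 members had a RefSeq promoter. The expression table holds no detection calls, and arrays have no sequencing depth, so the 3 arrays per group limit the precision.

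All genes were fitted with limma 3.58.1 (lmFit, eBayes) in R 4.3.3, as 6 groups without covariates (replicate numbers were assigned here in the order of the samples and pair nothing), with Benjamini-Hochberg adjustment over all genes. An exact permutation of 3 against 3 arrays cannot go below p = 0.1. Errors of changes are SE of this fit. Complexes were described by medians, with no test. Scripts were tested on simulated data.

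The members and lists were chosen with earlier results of these data known. Named were, per line and complex, the called members with the highest and lowest change, members called alike in all lines, the most opposite members, isoform pairs, SDH genes and catalytic cores. COX5B, COX6C, COX7C and the genes of the other lists were named after their values were seen. Alternatives were other thresholds, fits, scalings, filters, the methods' t-test and each array left out. An item that the naming rule selected is not reported here.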

Additional observations from a re-analysis of the deposited data

Results flagged for a closer look

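The change with EMT differed between lines, by a contrast of the changes in limma with an adjusted p below 0.05, for 35 subunits between HCC827 and A549 (42.2%, the same share as of all genes, 42.2%), 42 between NCI-H358 and A549 (50.6%, all genes 42.8%), and 46 between NCI-H358 and HCC827 (55.4%, all genes 37.9%). Leaving out each of the 18 arrays gave 32 to 38, 34 to 45 and 40 to 52.

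Some members were called in opposite directions in a pair of lines. For NDUFA6 the change was 1.456 higher in HCC827 than in A549 (adjusted p = 4.6e-08, 1.38 to 1.528 with 1 array left out) and 1.237 higher in NCI-H358 than in A549 (3.53e-07). For ATP5S, a coupling factor of ATP synthase on a dim probe set, it was 1.097 higher in HCC827 than in A549 (1.5e-05), and NCI-H358 minus HCC827 was -0.9315 (0.000102). The NCI-H358 call of ATP5S itself was lost without any 1 of 5 of its 6 arrays (adjusted p up to 0.193), all but parental replicate 1. For UQCR10 the change was 0.9466 higher in NCI-H358 (5.82e-06) and 0.7375 higher in HCC827 (7.75e-05) than in A549. NDUFS8 was 0.8828 higher in HCC827 than in A549 (4.38e-07), and SDHC 0.7172 higher in NCI-H358 than in HCC827 (0.000138). COX4I1 in NCI-H358 minus HCC827 was -0.8556 (1.64e-05). Each of these 9 differences kept an adjusted p of at most 0.000569 in every one of 18 fits with 1 array left out.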

How the results depend on the processing

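No result changed from one called direction to the other. Calls at a fold above 1.5 numbered 3 lower in A549, 3 higher and 5 lower in HCC827, and 2 higher and 1 lower in NCI-H358, and at the thresholds of the study 0 in each. At an adjusted p below 0.01, 8 members were higher in NCI-H358. In A549, 1 member was higher with a separate fit per line, centred arrays, quantile normalization, and the methods' t-test before and after adjustment. Called lower in all 3 lines were 11 with an intensity trend, 2 with centred arrays, and 6 to 9 with 1 array left out. A filter at a mean level of at least 9 was chosen after seeing the data. With it, 5 were higher in HCC827, and the parental differences above a fold of 1.5 between HCC827 and A549, NCI-H358 and A549, and NCI-H358 and HCC827 numbered 16, 17 and 11, against 25, 26 and 22 without the filter. With neither the filter nor the fold threshold they numbered 54, 58 and 59. Complex medians in A549 were, with centred arrays, -0.0977 (I), -0.263 (III), 0.0254 (IV) and -0.262 (V), with quantile normalization -0.222 (I), -0.224 (III) and -0.0644 (IV), and as means -0.209 (I), -0.0772 (IV) and -0.294 (V). Complex V in A549 was -0.278 at a level of at least 9, -0.289 without isoforms and proteins that are not subunits, and -0.337 to -0.298 with 1 array left out. In HCC827 they were, with centred arrays, -0.148 (I), -0.284 (II), 0.0461 (III), -0.127 (IV) and -0.166 (V), with quantile normalization -0.164, -0.278, 0.0629, -0.135 and -0.153, and at a level of at least 9 -0.305 (I), -0.225 (III) and -0.391 (IV). Complex I in HCC827 was -0.253 at a level of at least 5 and also without isoforms and other proteins, -0.135 as a mean, and -0.263 to -0.212 with 1 array left out. Without isoforms complex IV in HCC827 was -0.297, and complex III ranged from -0.0914 to 0.0239 with 1 array left out. In NCI-H358 complex I was -0.0239 as a mean, complex II 0.0121 with centred arrays, complex III 0.0352 at a level of at least 9, and with 1 array left out complex IV ranged from -0.017 to 0.0545 and complex V from -0.0366 to 0.0495. The cause of these shifts was not tested. Of 83 calls of named members, 9 were lost when 1 array was left out. Centring moved the median of all genes to 0.0472, 0.07 and 0.0541. No paired analysis was possible because the labels give no replicate numbers, and the numbers used here only name the arrays of a group. With 1 probe set per gene and no detection calls, dim readings may be background.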
